A study of Mus musculus with 2 samples.

Results

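Proteasome genes were taken as the protein-coding genes of the GRCm38 RefSeq table whose symbol begins with Psma, Psmb, Psmc, Psmd, Psme or Psmg and a digit. The rule found 50 of 21887 protein-coding genes on chromosomes 1 to 19, X and Y, and used no measured value. Of these, 47 were grouped by their role in the complex. The other 3, Psmc3ip, Psme2b and Psme3ip1, were taken in by their symbols alone. Psmc3ip encodes a partner of the meiotic recombinases and is not a proteasome subunit.

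The proteasome is the protease that breaks down proteins tagged with ubiquitin. Its core is a barrel of alpha rings, which form the gate, around beta rings, which hold the proteolytic sites. A regulatory cap of ATPase and non-ATPase subunits binds ubiquitinated proteins, unfolds them and feeds them into the core. Some cells exchange subunits: interferon induces immune forms of the catalytic beta subunits, the thymic cortex uses its own form, and the testis has the alpha subunit Psma8, which replaces Psma7 in meiotic and later male germ cells and is needed for meiosis.

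The data were ATAC-seq peaks of mouse GSCs (the labels' abbreviation) of genotype Stag3 KO, in which a cohesin subunit gene had been knocked out. ATAC-seq marks open chromatin by where the Tn5 transposase inserts its adapters. Both libraries, replicate 1 and replicate 2, came from the line labelled AAG, which carries beta-Actin-EGFP together with Acrosin-EGFP, sorted as viable and reporter-positive. The strain, the animals' age, the part of Stag3 removed, and whether the libraries came from separate cultures are not given in the sources used here, so their spread may be technical. There was 1 group, so no value below is an effect of the knockout, and wild-type libraries were not analysed here. Replicate 1 held 107331 peaks and replicate 2 held 98986. Their median fold enrichment, the peak caller's ratio of tags over local background, was 8.78 and 8.73. The median summit held 40 and 41 tags, which are the fragments stacked there, recovered from the fold and p-value of each peak. Each of the 12 genes listed as markers of undifferentiated spermatogonia had a start region as defined below, and 6 of the 12 had one above the median fold of both libraries; Nanos2 was the lowest by fold (4.08 and 2.79). A start region was also found at 4 of 6 Sertoli, 2 of 4 Leydig, 2 of 5 fibroblast and 2 of 4 blood cell markers, where 66.1% of all protein-coding genes had one and 52.2% had one above both medians. Peaks show accessibility, not expression; in bulk, a site open in fewer cells and a site less open per cell cannot be told apart, and the part of other cells was not tested.

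A region joined each replicate 1 peak to the 1 peak of replicate 2 sharing most bases with it, at least 1 bp. A start region was one that reached within 1000 bp of a start in the RefSeq promoter table. The table listed a start for 42 of the 50 genes. For Psma8, Psmb1, Psmb2, Psmb7, Psmc3, Psmd3, Psmd7 and Psmg2, both gene ends were used, so their region may lie at the 3′ end. The values below are those of the start region of each gene with the highest mean percentile of fold in its 2 libraries.

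The promoters that carry the contrast among the forms are shown first, as 300 bases from 250 before to 49 after the listed start. They were copied 5′ to 3′ on the gene's strand from RefSeq (GRCm38.p6). Capitals mark every match to 1 of 9 motifs described further on, on either strand. The immune forms differ in how much of this window was open: all 300 bases of the Psmb9 window (chr17:34187281-34187580, minus strand) lay in its start region, against 2 bases of the Psmb10 window (chr8:105938343-105938642, minus strand) and 0 of the Psmb8 window (chr17:34197945-34198244, plus strand).
Psmb8: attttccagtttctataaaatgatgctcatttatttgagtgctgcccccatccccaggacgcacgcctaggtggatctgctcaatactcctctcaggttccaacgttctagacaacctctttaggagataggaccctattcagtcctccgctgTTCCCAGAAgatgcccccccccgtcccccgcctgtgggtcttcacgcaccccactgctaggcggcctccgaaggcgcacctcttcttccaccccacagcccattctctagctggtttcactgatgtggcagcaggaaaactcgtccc
Psmb9: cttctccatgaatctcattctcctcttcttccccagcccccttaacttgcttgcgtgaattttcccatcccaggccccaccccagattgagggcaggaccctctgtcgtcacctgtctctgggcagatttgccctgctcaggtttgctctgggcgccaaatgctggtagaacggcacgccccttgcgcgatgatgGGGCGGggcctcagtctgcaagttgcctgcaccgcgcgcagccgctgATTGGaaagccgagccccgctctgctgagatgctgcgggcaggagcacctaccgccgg
Psmb10: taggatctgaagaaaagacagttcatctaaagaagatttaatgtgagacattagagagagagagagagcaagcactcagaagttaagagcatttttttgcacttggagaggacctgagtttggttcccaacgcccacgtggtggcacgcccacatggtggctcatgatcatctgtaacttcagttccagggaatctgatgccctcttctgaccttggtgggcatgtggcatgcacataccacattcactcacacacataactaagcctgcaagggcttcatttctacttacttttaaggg

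The constitutive subunits Psmc4 (chr7:28050043-28050342, minus strand), Psma4 (chr9:54950609-54950908, plus strand) and Psma5 (chr3:108256676-108256975, plus strand) had the highest mean percentiles of fold among the other genes with a listed start, and each window lay wholly in its start region.
Psmc4: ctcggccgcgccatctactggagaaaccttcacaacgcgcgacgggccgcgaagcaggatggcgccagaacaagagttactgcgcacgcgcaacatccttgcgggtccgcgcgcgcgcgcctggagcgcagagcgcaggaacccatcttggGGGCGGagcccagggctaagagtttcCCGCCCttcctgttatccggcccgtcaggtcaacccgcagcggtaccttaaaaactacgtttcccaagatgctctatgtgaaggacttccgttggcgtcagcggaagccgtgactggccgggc
Psma4: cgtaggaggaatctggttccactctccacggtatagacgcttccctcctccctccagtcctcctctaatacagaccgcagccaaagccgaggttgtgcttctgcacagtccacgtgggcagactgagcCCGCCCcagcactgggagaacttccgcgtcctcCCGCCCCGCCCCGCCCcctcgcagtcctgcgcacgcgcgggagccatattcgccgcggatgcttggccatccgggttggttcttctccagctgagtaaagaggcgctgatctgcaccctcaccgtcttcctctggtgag
Psma5: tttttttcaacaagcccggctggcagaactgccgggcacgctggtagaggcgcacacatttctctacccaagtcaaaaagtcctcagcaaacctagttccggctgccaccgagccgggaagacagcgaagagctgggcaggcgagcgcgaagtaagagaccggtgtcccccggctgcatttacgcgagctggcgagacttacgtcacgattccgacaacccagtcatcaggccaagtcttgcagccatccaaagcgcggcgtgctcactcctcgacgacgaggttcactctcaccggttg

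Psmd4 (chr3:95042565-95042864, minus strand) and Psmd2 (chr16:20651402-20651701, plus strand) are the cap genes with the highest percentiles among those with an ETS match, and were added for that motif after its counts were seen.
Psmd4: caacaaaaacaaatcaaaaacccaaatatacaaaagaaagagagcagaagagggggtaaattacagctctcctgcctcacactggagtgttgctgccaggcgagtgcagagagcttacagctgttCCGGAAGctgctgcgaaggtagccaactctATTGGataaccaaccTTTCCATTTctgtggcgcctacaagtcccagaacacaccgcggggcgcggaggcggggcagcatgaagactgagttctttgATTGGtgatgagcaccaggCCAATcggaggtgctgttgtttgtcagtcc
Psmd2: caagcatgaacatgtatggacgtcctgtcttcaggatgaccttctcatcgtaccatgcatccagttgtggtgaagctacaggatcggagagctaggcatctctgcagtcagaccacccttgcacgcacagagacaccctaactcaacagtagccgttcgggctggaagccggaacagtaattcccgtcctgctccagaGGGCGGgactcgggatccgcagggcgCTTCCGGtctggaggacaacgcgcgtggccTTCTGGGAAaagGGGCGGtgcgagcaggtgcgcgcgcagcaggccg

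Nearly all proteasome genes had an open start in these cells. A start region was present at 48 of 50 genes (96.0%, exact 95% Clopper-Pearson interval 86.3 to 99.5), where 66.1% of all protein-coding genes had one. Each of the 31 constitutive subunits of core and cap had a start region, as did the 7 assembly chaperones, the 4 activators, the 3 immune forms and Psma8. Psmb11 and Psme2b had none. A start region above the median fold of both libraries was found at 44 of 50 (88.0%, interval 75.7 to 95.5), against 52.2% of all genes. Among the 42 with a listed start, 40 had a start region, against 65.9% of all such genes, and 36 had one above both medians, against 52.7%. When any region within 1000 bp of the gene counted, 48 of 50 genes again had one, against 75.7% of all genes. The intervals cover counting error only.

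Other housekeeping complexes gave like shares. A start region was found at 91.9% of 86 cytosolic ribosomal protein genes, at 93.6% of 78 mitochondrial ribosomal protein genes and at 96.4% of 56 translation initiation factor genes. In the same order, 80.2%, 84.6% and 87.5% of these genes had one above the median fold of both libraries. Their median folds in replicates 1 and 2 were 16.7 and 17.3, 17.9 and 20.8, and 17.3 and 19.5. No difference between these families was tested.

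Over the 48 genes, the median fold was 17.7 in replicate 1 and 18.6 in replicate 2, and the median number of tags was 164 and 201. Over the 14473 protein-coding genes with a start region, the median fold was 15.2 and 16.0 and the median number of tags was 127 and 139. Proteasome genes ranged from 5.16 to 31.1 in replicate 1 and from 5.52 to 36.1 in replicate 2. In 13 genes (27.1%), Psmc3ip and Psme3ip1 among them, the fold stood above percentile 90 of all peaks of both libraries, against 16.7% of all genes with a start region. The median width of their peaks was 632 and 604 bp, where all such genes had 641 and 621 bp.

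**Figure D1:**
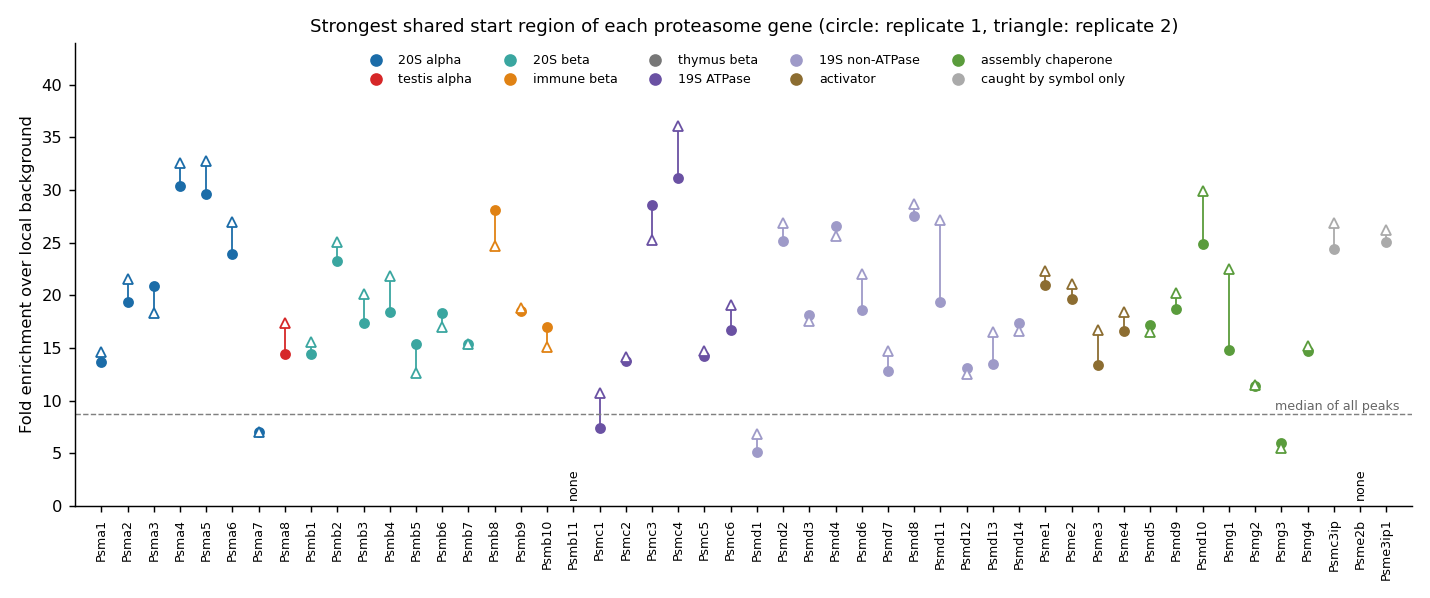
Fold enrichment (vertical axis, ratio over local background) of the strongest start region of each proteasome gene, grouped by role, with replicate 1 as filled circles, replicate 2 as open triangles and a line joining them; the dashed line is the mean of both libraries' median fold over all peaks. Psmc4 is the highest, Psma7, Psmd1 and Psmg3 lie below the dashed line in both libraries, and Psmb11 and Psme2b have no region.

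The alpha subunits, which form the outer rings and the gate of the core, held both strong and weak sites. Psma4 had folds of 30.4 and 32.6 with 288 and 298 tags. Psma5 had folds of 29.6 and 32.8 with 338 and 433 tags. Both stood at the top of the alpha genes in each library. Psma6 had folds of 23.9 and 27.0 with 163 and 227 tags, at the second of its 2 listed starts. A further, weaker replicate 1 peak there (4.19-fold) shared the same replicate 2 peak, so that 2 regions were counted for 1 site.

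Psma2 followed with 19.4 and 21.6, Psma3 with 20.9 and 18.3, and Psma1 with 13.7 and 14.6. Psma7 was the lowest alpha gene, with folds of 7.05 and 7.0, below the library medians. Its tags were 118 and 113, which stood at percentiles 83.4 and 80.5 of all peaks. The local background there was 15.9 and 15.3 tags, the highest of the alpha genes. Psma7 lies on chromosome 2 at 180036367 to 180042464, and its start region at 180042236 to 180042594 also holds the start of Ss18l1, listed 19 bp away on the opposite strand.

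Psma8, the testis alpha form, had a site at the lower-coordinate end of its gene model. The gene lies on chromosome 18 at 14706135 to 14762301 and the region at 14705945 to 14706542. Its folds were 14.4 and 17.4 (mean 15.9 ± 2.09, SD, n = 2), at percentiles 72.0 and 78.9 of all peaks. The summits held 59 and 72 tags over a background of 3.16 and 3.20 tags. By fold Psma8 stood above Psma7 in both libraries, and by tags it stood below Psma7 in both. The order by fold rests on the 1000 bp window: at 2500 bp the region of Psma7 became its inner site (15.4 and 14.1), and Psma8 stood below it in replicate 1 and above it in replicate 2. No start is listed for Psma8, so which end is its 5′ end was not taken from the table. Inside the gene model a second region, at 14751730 to 14752250, had 20.2-fold and 8.96-fold enrichment from 74 and 27 tags. The libraries differed there by more than at the end of the gene.

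The 7 constitutive beta subunits all had a start region above the library medians. Psmb2 led with folds of 23.3 and 25.1 and with 179 and 227 tags. Psmb4 had 18.4 and 21.8, Psmb3 had 17.4 and 20.1, and Psmb1 had 14.4 and 15.6. By tags Psmb3 (330 and 393) and Psmb1 (261 and 305) were ahead of Psmb2, so the order within the beta ring depends on the measure.

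Psmb5, Psmb6 and Psmb7 carry the catalytic sites that the immune forms replace. Psmb5, the chymotrypsin-like subunit, had folds of 15.4 and 12.6 with 97 and 68 tags. Psmb6, the caspase-like subunit, had folds of 18.3 and 17.0 with 162 and 138 tags. Psmb7, the trypsin-like subunit, had folds of 15.4 and 15.4 with 97 and 127 tags, at the higher-coordinate end of its model. Psmb6 was the highest of these in both libraries by either measure. When peaks had to overlap by 50% of each, the Psmb7 region was lost, since its peaks were 834 and 389 bp wide, and the strongest one left at its ends had a mean fold of 3.62.

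The 3 immune forms had more tags than the subunits they replace in both libraries, and their folds overlapped. Psmb8, which replaces Psmb5, had folds of 28.1 and 24.7 (mean 26.4 ± 2.44, SD, n = 2) with 229 and 219 tags. Psmb9, which replaces Psmb6, had folds of 18.5 and 18.8 with 275 and 281 tags. Psmb10, which replaces Psmb7, had folds of 17.0 and 15.1 with 253 and 264 tags. By tags the lowest immune form was above the highest of the 3 catalytic counterparts in each library. The local background was also higher at each immune form than at its counterpart in both libraries. Other constitutive beta genes did not all stand lower. Psmb3 (330 and 393 tags) was above all 3 immune forms in both libraries, and Psmb1 (261 and 305) was above Psmb8 and Psmb10. Psmb4 (175 and 199) was below all 3 in both libraries. Psmb2 (179 and 227) was above Psmb8 in replicate 2 only. By fold Psmb8 stood above Psmb5 and Psmb9 above Psmb6 in both libraries, while Psmb10 stood above Psmb7 in replicate 1 and below it in replicate 2. That last order turned at 2500 bp, where Psmb10 had 18.3 in replicate 2 against 15.4, and at 50% overlap, where Psmb7 had 3.14. As described below, the Psmb9 region is shared with Tap1, and the regions of Psmb8 and Psmb10 do not cover their listed starts. Genes are not replicates of a form, so no test was made, and whether the lead in tags belongs to the immune forms as such was not tested.

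Position set 2 of the immune forms apart. The start region covered a listed start at 38 of 40 proteasome genes that had both, and at 83.2% of all 11521 such protein-coding genes. The 2 exceptions were Psmb8 and Psmb10. The Psmb8 region, on chromosome 17 at 34197439 to 34197920, ended at position -275 from the listed start, with summits at -516 and -529 (negative upstream). The Psmb10 region, on chromosome 8 at 105937925 to 105938344, began 48 bp inside the gene, with summits 238 and 232 bp downstream of the listed start. Other starts of these genes may not be listed. Psmb10 also had a region further inside, at 105936807 to 105937296, with folds of 15.7 and 18.3 and with 237 and 321 tags.

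Psmb9 and Psmb8 lie beside Tap1 and Tap2, which encode the transporter that carries peptides to class I molecules. The Psmb9 region, on chromosome 17 at 34186880 to 34187962, also covered the start of Tap1, listed 226 bp from that of Psmb9 on the opposite strand. Its summits lay at -80 and -79 bp from the Psmb9 start. The Psmb8 region lay between the end of Tap1, 9895 bp from the Psmb9 start, and the start of Psmb8, 10865 bp from it. Accessibility at the start shared by Psmb9 and Tap1 cannot be given to either gene alone. The Psmb8 region came within 1000 bp of no other gene's listed start, and which gene it serves was not tested. Tap2 had a region at its lower-coordinate end with folds of 19.6 and 20.7.

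**Figure D2:**
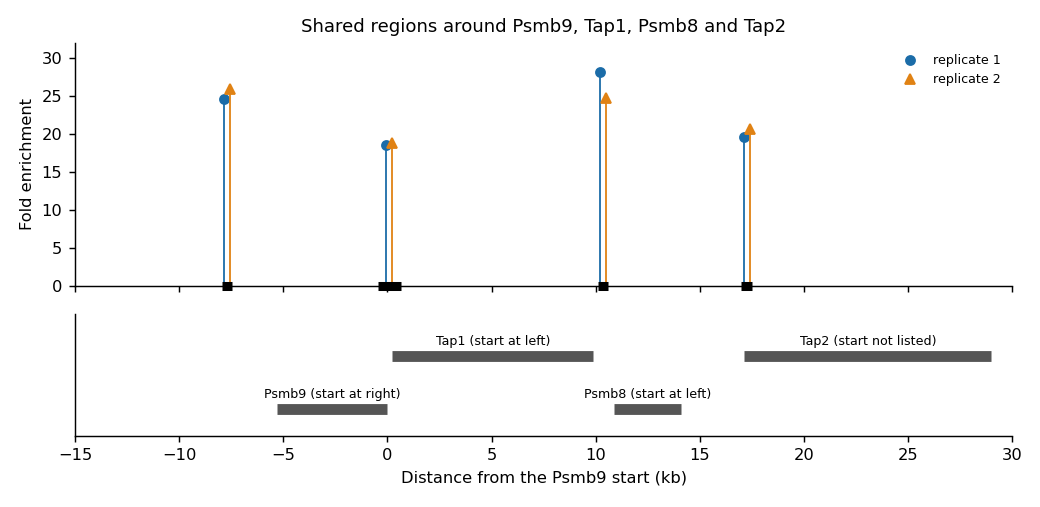
Fold enrichment (upper panel, vertical axis) of each shared region, drawn as black bars on the axis, in replicate 1 (circles) and replicate 2 (triangles) along the distance from the Psmb9 start in kb, with gene models below. There is 1 region at the shared start of Psmb9 and Tap1, 1 between Tap1 and Psmb8, 1 at the end of Tap2 and 1 beyond the 3′ end of Psmb9.

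Psmb11, the thymus form, had no peak of either library within 1000 bp of its model on chromosome 14 at 54625310 to 54629556. The nearest region lay 2381 bp away with folds of 8.79 and 4.93, near Cdh24, so it entered only when the distance was set to 2500 bp. Psmb5 lies close by on the same chromosome, at 54614120 to 54617995, and was open at its start as given above. Psme2b, a model of 1066 bp, likewise had no peak of either library, and its nearest region was 16961 bp away.

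The 6 ATPases of the cap, which unfold substrates, spanned almost the whole range of the set. Psmc4 had the highest percentile of all proteasome genes, with folds of 31.1 and 36.1 and with 388 and 472 tags. Psmc3 had folds of 28.6 and 25.3 with 306 and 258 tags. Psmc6 had 16.7 and 19.1, Psmc5 had 14.2 and 14.7, and Psmc2 had 13.8 and 14.1. Psmc1 had folds of 7.37 and 10.7 with 31 and 49 tags, the fewest of any proteasome gene. It was below the median fold of all peaks in replicate 1 and above it in replicate 2.

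Among the non-ATPase subunits, the ubiquitin receptor gene Psmd4 had the most tags of the set, 528 and 556, with folds of 26.6 and 25.6. Psmd8, a lid subunit, had folds of 27.5 and 28.7 with 329 and 334 tags. Psmd2, a base scaffold that also binds ubiquitin-like domains, had folds of 25.2 and 26.9 with 215 and 234 tags. Psmd14, the deubiquitinase of the lid, had folds of 17.4 and 16.6 with 123 and 135 tags. These 4 genes were all above the library medians in both libraries.

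Psmd1, the other large scaffold of the base, had the lowest fold of the cap genes, 5.16 and 6.87, with 62 and 77 tags. A further region at its start had folds of 5.80 and 5.35 with 126 and 115 tags. The strongest sites of Psmd1 lay inside the gene, among them 1 at 86066498 to 86066913 on chromosome 1 with folds of 18.7 and 13.5. With a distance of 2500 bp that site became its start region (mean fold 16.1), and the inner site of Psma7 did so likewise (mean fold 14.7). The remaining non-ATPase genes lay between. Psmd11 had folds of 19.4 and 27.2, Psmd6 had 18.6 and 22.0, Psmd3 had 18.1 and 17.6, Psmd13 had 13.5 and 16.5, Psmd7 had 12.8 and 14.7, and Psmd12 had 13.1 and 12.5.

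All 4 activators, caps that open the core without ATP, had a start region above the medians. Psme1 and Psme2 form the interferon-inducible activator. Psme1 had folds of 21.0 and 22.3 with 227 and 264 tags. Psme2 had folds of 19.7 and 21.1 with 382 and 503 tags. Psme3, the nuclear form, had folds of 13.4 and 16.7 with 66 and 89 tags. Psme4, which promotes breakdown of acetylated histones in male germ cells, had folds of 16.6 and 18.4 with 186 and 201 tags. It also had the most regions of the set, 7 within 1000 bp of a model of 109376 bp, of which 2 lay at the start. Of its 5 inner sites, the 1 with the highest mean percentile had folds of 17.2 and 18.6, and another had 22.3 and 9.92, a wider difference between libraries.

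Assembly chaperones, which help the complex to form, also held strong and weak sites. Psmd10, also called gankyrin, had folds of 24.9 and 29.9 with 165 and 230 tags. Psmd9 had 18.7 and 20.2, Psmd5 had 17.2 and 16.5, Psmg1 had 14.8 and 22.5, and Psmg4 had 14.7 and 15.2. Psmg2 had 11.4 and 11.5, at the lower-coordinate end. Psmg3 had the lowest mean percentile of all, with folds of 5.93 and 5.52 and with 50 and 56 tags. The genes taken in by symbol alone were Psmc3ip, with folds of 24.4 and 26.9, and Psme3ip1, with 25.1 and 26.2.

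Fold and tags ranked the genes differently. Over the 48 genes, the mean fold and the mean number of tags had a Spearman rho of 0.72, a description across genes that share both libraries. Psma7 had more tags than Psma8 in both libraries and a lower fold. Psmd9 had a fold of 18.7 and 20.2 from 75 and 66 tags, over a background of 3.06 and 2.32 tags. Psmb1 had a lower fold, 14.4 and 15.6, from 261 and 305 tags, over a background of 17.2 and 18.6 tags. Fold is relative to the local background, so a fold alone does not rank how many fragments came from a site.

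**Figure D3:**
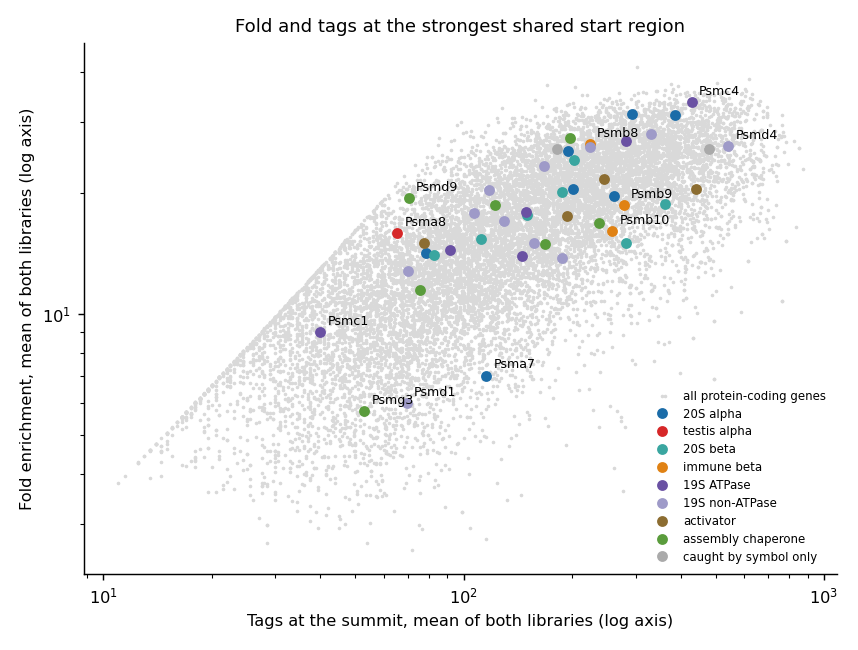
Mean fold enrichment (vertical log axis) against the mean number of tags at the summit (horizontal log axis) for the strongest start region of 48 proteasome genes, coloured by role, over 14473 protein-coding genes in grey. Psma7 and Psmd1 lie low for their tags, and Psma8 and Psmd9 lie high for theirs.

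The libraries gave like values, and some genes changed places between them, such as Psma2 with Psma3 and Psmb7 with Psmb10. Log2 folds correlated with r = 0.95 over the 48 genes and log2 tags with r = 0.96, both descriptions across genes. Fold was higher in replicate 2 at 34 genes (70.8%, against 66.9% of all genes with a start region) and in replicate 1 at 14. The median ratio of tags, replicate 2 over replicate 1, was 1.15, against 1.11 over all genes with a start region and 1.04 in the summed tags of 77463 regions with summits within 100 bp. The largest ratios were 1.63 at Psmg1 (95% counting interval 1.25 to 2.14), 1.58 at Psmc1 (0.988 to 2.56) and 1.5 at Psmd11 (1.20 to 1.88). At 13 genes (27.1%) the counting interval did not hold 1.04, against 22.5% of all genes with a start region. Regions of like tags spread further: the central 95% of their ratios ran from 0.534 to 1.74 for Psmg1, and none of the 48 genes lay outside its own such range.

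Summits lay just upstream of the start. In the 40 genes with a listed start and a region, the median position of the summit, negative upstream, was -42 bp in replicate 1 and -36 bp in replicate 2. Over all 11521 such protein-coding genes it was much the same, -49 and -48 bp. The summit lay within 250 bp of the start at 39 of 40 genes in each library, against 74.1% and 73.8% of all such genes. Psmb8 was the exception in both. Summits were upstream at 32 and 35 of the 40 genes (80.0% and 87.5%), against 70.3% and 70.5% of all such genes. In Psma1 the summits of the libraries fell on opposite sides of the start, at -153 and 116 bp, within peaks of 911 and 915 bp.

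**Figure D4:**
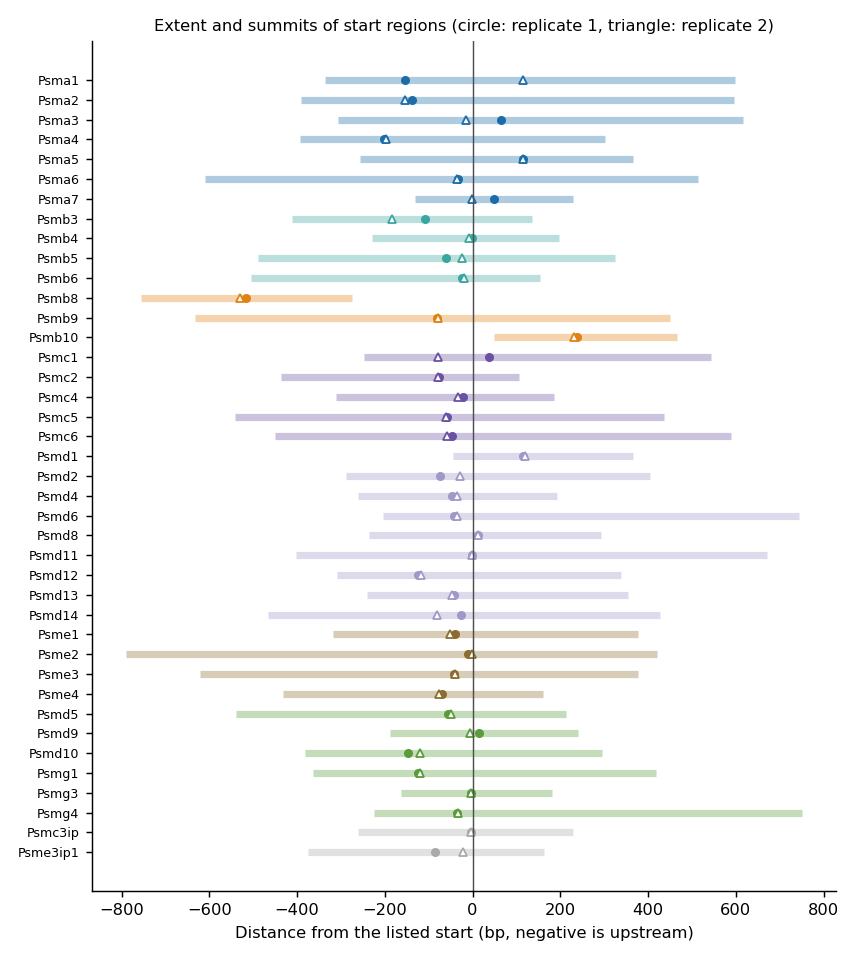
Extent (bars) and summits (circles for replicate 1, triangles for replicate 2) of the strongest start region of 40 proteasome genes, against the distance from the listed start in bp, with upstream negative. The Psmb8 region lies wholly upstream of the start and the Psmb10 region wholly downstream, while the other 38 regions cover it.

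Some starts were shared with a neighbour. At 11 of the 48 genes (22.9%) the start region also came within 1000 bp of another protein-coding gene's start. The share was 16.4% over all genes with a start region. Where the neighbour had no listed start, its ends were used. In 8 of the 11 the partner started on the opposite strand and ran away from the proteasome gene. The share of all genes with such a partner is not reported here. The 8 pairs were Psma2 with Mrpl32 (205 bp apart), Psma7 with Ss18l1, Psmb9 with Tap1, Psmc5 with Ftsj3 (101 bp), Psmd13 with Sirt3 (85 bp), Psmd10 with Atg4a (196 bp), Psme2 with Rnf31 (641 bp) and Psme3ip1 with Rspry1 (215 bp). At these genes the value belongs to a joined region that reaches both starts and cannot be given to either gene. Psme2, with the most distant partner, had peaks of 1211 and 645 bp and summits at -11 and -2 bp from its own start.

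Most genes had a single region. There was 1 region within 1000 bp of 29 genes and 2 or more at 19. The like shares of all protein-coding genes are not reported here. With the Psma6 site counted as 2 regions, 82 regions lay near proteasome genes, 61 of them in start windows and 21 elsewhere. Among the latter, Psmd14 had an inner region with folds of 25.3 and 22.9, above those of its start. Psmd9 had an inner region with folds of 20.2 and 25.0.

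Promoter windows were searched on both strands for 9 motifs. For a gene with several listed starts, the start nearest the summits was used. The letters CCGGAAG, bound by the ETS family, were found at 16 of 42 proteasome genes (38.1%), against 12.1% of the 17492 promoters of all protein-coding genes and 17.0% of those with a start region. By role, the matches fell at 9 of 14 cap subunit genes and at 1 of 15 core genes, Psma6. The 15 core genes take in the immune forms and Psmb11. Psma8, Psmb1, Psmb2, Psmb7 and the cap genes Psmc3, Psmd3 and Psmd7 had no window, as no start is listed. The matches also fell at 2 of 4 activators, at 2 of 6 assembly chaperones, and at Psmc3ip and Psme3ip1, which were taken in by symbol alone. Of 21 matches, 18 had their centre within 100 bp of the start. The like share in the other promoters with these letters is not reported here. In the Psmd2 promoter printed above the match spans positions -26 to -20 from the start, on the other strand, and in that of Psmd4 it spans -125 to -119.

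The other motifs are given with their share in all promoters and then in those of genes with a start region. The core of the antioxidant response element, TGACNNNGC, to which Nfe2l1 and Nfe2l2 bind and through which proteasome genes are known to be induced, was found at 6 of 42 genes (14.3%), against 13.1% and 14.2%. These were Psmb5, Psmb6, Psmc6, Psmd9, Psmd12 and Psme4. The SP family box GGGCGG was found at 24 (57.1%, against 47.4% and 66.3%), so its share lay above the former and below the latter. CCAAT was found at 15 (35.7%, against 39.3% and 39.4%). GCGCATGC, for nuclear respiratory factor 1, was found at 3 (7.14%, against 3.67% and 5.23%), AAGATGGCG, for YY1, at 2 (4.76%, against 1.98% and 2.90%), and the cyclic AMP response element TGACGTCA at 0 (against 2.35% and 3.22%). The interferon-stimulated core TTTCNNTTT was found at 6 (14.3%, against 9.72% and 7.11%), among them Psme1 but no immune beta gene. The STAT letters TTCNNNGAA were found at 3 (7.14%, against 7.76% and 6.48%), among them Psmb8. Matches may overlap, each describes letters in a window and not a bound site, and letters missing from this window may lie outside it.

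**Figure D5:**
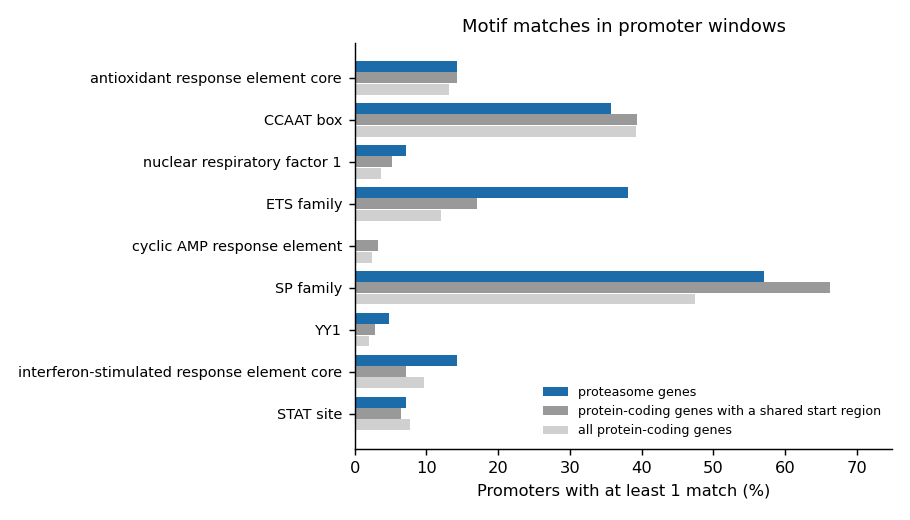
Share of promoter windows (horizontal axis, percent) with at least 1 match to each of 9 motifs in 42 proteasome genes (blue), in protein-coding genes with a start region (dark grey) and in all protein-coding genes (light grey). The ETS letters stand at 38.1% of proteasome genes against 12.1% of all genes, and the antioxidant core at 14.3% against 13.1%.

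The promoters were richer in CpG than those of most genes. The median ratio of observed to expected CpG was 0.75 in the 42 proteasome genes, against 0.59 in all promoters and 0.76 in those of genes with a start region. The lowest values were those of Psme2b (0.09), Psmb11 (0.17) and Psmb10 (0.19). The first 2 of these are the genes with no region, and the Psmb10 window lies mostly outside its region. Psmb8 and Psmb9 had 0.52 and 0.60.

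The wider pathway was open as well. All 25 genes of a list of proteasome-linked genes had a start region, against 66.1% of all protein-coding genes. Of the 25, 20 (80.0%) had one above the medians of both libraries, against 52.2% of all protein-coding genes. Pomp, the maturation factor of the core, had folds of 21.5 and 24.9, and Psmf1, an inhibitor of the core, had 21.5 and 19.6. The transcription factor genes Nfe2l1 and Nfe2l2 had 27.7 and 28.1, and 15.6 and 20.6. Rps27a and Ubb, which encode ubiquitin, had 24.3 and 29.0, and 15.6 and 21.8. Ubqln1, a shuttle factor that brings ubiquitinated proteins to the proteasome, had 5.22 and 5.24, below the medians of both libraries. All 7 genes of interferon response and antigen presentation had a start region above the medians, against the same 52.2%. Among them were B2m (16.4 and 22.5), Irf1 (15.9 and 16.0) and Nlrc5 (24.1 and 24.9). For Tap1, also among the 7, it was the region shared with Psmb9. No interferon treatment is listed for these libraries, and expression was not measured here.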

How the data were processed

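ATAC-seq peaks of 2 Stag3 KO GSC libraries, grouped and numbered by their titles, were analysed. The deposited lists, 1 per library, give each peak's fold enrichment ratio, −log10 p-value and −log10 q-value, and a score that is 10 times −log10 q, all by the authors' peak caller. Per the submitters' processing notes, MACS2 (version 2.1.1) and Bowtie2 (version 2.3.4.1) were used, with deepTools (3.5.0), Trim Galore, bedtools (2.29.2) and Picard (2.18.23); mm10 and GRCm38.p3 are the builds named. Parameters, with any Tn5 shift, duplicate removal and handling of reads that map to several places, are not given in the sources used here, and can set which weak or repeated sites are called.

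Tags were recovered as the whole number that solves fold as tags plus 1 over background plus 1 and p as the Poisson tail above the tags; this succeeded for 100% of peaks within a relative 1e-05 plus 0.0001, with read depth unknown. Percentiles are ranks within a library's peaks. Genes and starts came from RefSeq tables on GRCm38.p6; patch releases leave chromosome coordinates as they were. Of the 50 genes, 42 matched the promoter table. Python 3.11.15 with scipy 1.17.1 was used, and the procedures were tested on simulated data. No test between groups was possible with 1 group, and no set test was run. Alternatives changed the threshold, overlap, distance, library, ends and members.

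The members, lists and motifs were chosen with earlier results of these data known. Correlations and counts over genes are descriptions. Named in full were the immune, testis and thymus forms and their counterparts, the 5 highest and 5 lowest genes by percentile, genes with no region, and the 3 largest tag ratios; others are given by folds. The planned proteins are not shown, as no protein table was used. Values of some genes of the pathway lists are not reported here.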

Additional observations from a re-analysis of the deposited data

How the results depend on the processing

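The number of proteasome genes with a start region, 48, kept within 1.5 times under every alternative run. It was 48 with −log10 q of at least 5, with 50% reciprocal overlap, at 500 and at 2500 bp, and in each library alone (48 without replicate 1 and 48 without replicate 2), and 44 with the 50000 peaks of highest fold, where Psma7, Psmc1, Psmd1 and Psmg3 were lost. Start regions above the medians numbered 43 to 46 under changes of threshold, overlap, distance or library. The median fold moved by more than the spread between the libraries (SD 0.602) to 18.4 and 19.6 with the 50000 strongest peaks, and to 18.4 and 19.6, a setting added after seeing the data, with only the genes that have a listed start. With both libraries kept, 164 single-gene mean folds were recomputed, and 3 moved by more than the spread between libraries: Psmb7 at 50% overlap (3.62), and Psma7 (14.7) and Psmd1 (16.1) at 2500 bp. The settings limited to genes grouped by role or to genes with a listed start only drop genes. They could not move those kept. Genes lost under a setting were not among the 164. The order of a form and its counterpart by fold, added after seeing the data, reversed in 3 cases. The fold of Psma8 minus that of Psma7 in replicate 1 went from 7.37 to -0.979 at 2500 bp. The fold of Psmb10 minus that of Psmb7 in replicate 2 went from -0.293 to 2.95 at 2500 bp and to 12.0 at 50% overlap. No paired analysis was possible because there is 1 group. Read depth was unknown, and sites of few tags, such as Psmc1, are the least precise.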

Other observations

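Most pseudogenes that carry proteasome symbols had no region shared by both libraries. The like share of all pseudogenes is not reported here. Of 6 in the RefSeq table, 1 had a region in both libraries, Psmb5-ps on chromosome 11, at 102659279 to 102659868, with folds of 6.90 and 6.08 and with 21 and 18 tags. Psmb6-ps2 had a peak in replicate 1 only, and Psma5-ps, Psmb6-ps, Psmb7-ps1 and Psmb7-ps2 had none in either library. How reads from near-identical copies were placed is not given in the sources used here, so a missing peak does not show closed chromatin.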
